A study of Mus musculus with 6 samples.

Results

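The genes described here encode enzymes that act on superoxide and peroxides: the superoxide dismutases Sod1 and Sod2, catalase (Cat) and the glutathione peroxidases Gpx1, Gpx3, Gpx4, Gpx7 and Gpx8. They were taken by symbol from the platform annotation of an Illumina mouse bead array, which gave 15 probes for the 8 genes, out of 45281 probes and 19057 annotated genes in all. The treated group comprised 3 arrays of murine cancer cells expressing the rat her-2/neu oncogene, which encodes a growth factor receptor kinase, that had received 8 µM withaferin A, a steroidal lactone of Withania somnifera, for 6 h. The comparison group comprised 3 arrays of the same cells left untreated, and all 6 cultures grew in medium with 20% FBS. Passages 2, 3 and 4 are named for the replicates without being tied to array numbers, and the p-values describe variation among the arrays, part of which may be technical. The labels name no clone and no vehicle control, and 1 dose and 1 time were used. Per its title the study is about the stress pathway and antitumour immunity, and the question here is how RNAs of these enzymes differ after the drug.

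Superoxide, a by-product of respiration and of oxidase enzymes, is converted by superoxide dismutases to hydrogen peroxide. Catalase, in peroxisomes, breaks hydrogen peroxide down to water and oxygen, and glutathione peroxidases reduce it and lipid peroxides with glutathione. Several glutathione peroxidases carry selenocysteine in the active site, and some antioxidant genes are inducible through the transcription factor NRF2.

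Over the tested probes the median raw intensity was 191.8 to 202 on the withaferin A arrays and 218.5 to 235.9 on the untreated arrays, and 18275 to 20104 probes per array were above background. The epithelial character of the cells was checked with 10 markers, of which 7 were above background on all 6 arrays, the keratin genes Krt8, Krt18 and Krt7 among them, while Epcam and Krt5 were above background on none. Of 6 leukocyte markers measured, 5 were above background on no array, and so were 4 of 5 endothelial markers. Of 9 mesenchymal markers, 3 were above background on all arrays, and their summed linear intensity was 9096 to 15086 with withaferin A and 14148 to 17192 without, so the groups overlapped. Vim, the intermediate filament gene of mesenchymal cells, made up most of that sum. The 10 epithelial markers summed to 12422 to 16662 with withaferin A and 15391 to 18100 without, which also overlapped. Among single markers, the basal keratin gene Krt14 rose (log2 change 2.92, limma adjusted p = 0.000761) and passed in all 15 alternatives described further on. The other tested epithelial markers did not pass. Krt18, Cldn4, Cdh1, Cldn3 and Krt8 had changes of -0.70, -0.65, -0.33, -0.18 and -0.14, and Krt7 and Krt19 of 0.09 and 0.35. Krt19 varied widely within both groups and was above background on 2 arrays of each. It read 6.25, 4.83 and 8.68 on withaferin A arrays 1 to 3 and 6.14, 4.65 and 7.91 on untreated arrays 1 to 3. The mesenchymal genes Dcn (-1.45, adjusted p = 0.00778) and Pdgfra (-1.10, adjusted p = 0.0327) fell, of which Dcn was lost with no filter on dim probes and Pdgfra with no filter or without withaferin A array 1 or 2 or untreated array 2 or 3 (adjusted p up to 0.135). Krt14, Dcn and Pdgfra were the 3 markers that passed. They were named after their values were seen, and their part in the results below was not tested. As a check of the treatment, all 5 of a short list of NRF2 targets (Hmox1, Nqo1, Gclm, Srxn1 and Txnrd1) rose, with a median log2 change of 3.60, where 2.81% of all tested genes rose. The list was chosen with earlier results of these data known, so its count is a description and not an independent test. Hmox1 was above background on 3 withaferin A arrays and 1 untreated array, so it entered the test through the treated group.

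Of the 8 genes, only Cat passed the test. Its RNA was 2.21-fold higher with withaferin A, while the probes of Sod1, Sod2, Gpx1, Gpx4 and Gpx8 lay between a log2 change of -0.30 and 0.41 and did not pass the test. Gpx3 and Gpx7 were not above background in either group. In RNA from whole cultures, a change in how many cells express a gene and a change in its RNA per cell cannot be told apart. Values are log2 intensities after background correction and quantile normalization, a probe counts as above background on an array where its detection p is under 0.05, and probes above background on at least 3 of the 6 arrays were tested. Changes are withaferin A minus untreated, fitted with limma over 19077 probes, with Benjamini-Hochberg adjustment over all of them and a threshold of 0.05. Of the 15 probes, 12 passed the filter on dim probes, for 6 genes, and 1 of these 12 was called (Cat, higher), where 5.90% of all tested probes were called. By gene, each at its tested probe with the highest mean, 1 of 6 was called, against 6.83% of all 9756 genes. The median change of the 6 genes was 0.17, against 0.01 for all tested genes, and the median size of the change regardless of sign was 0.29, against 0.24. The values of the groups did not overlap at 3 of the 12 probes, against 29.1% of all tested probes.

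**Figure D1:**
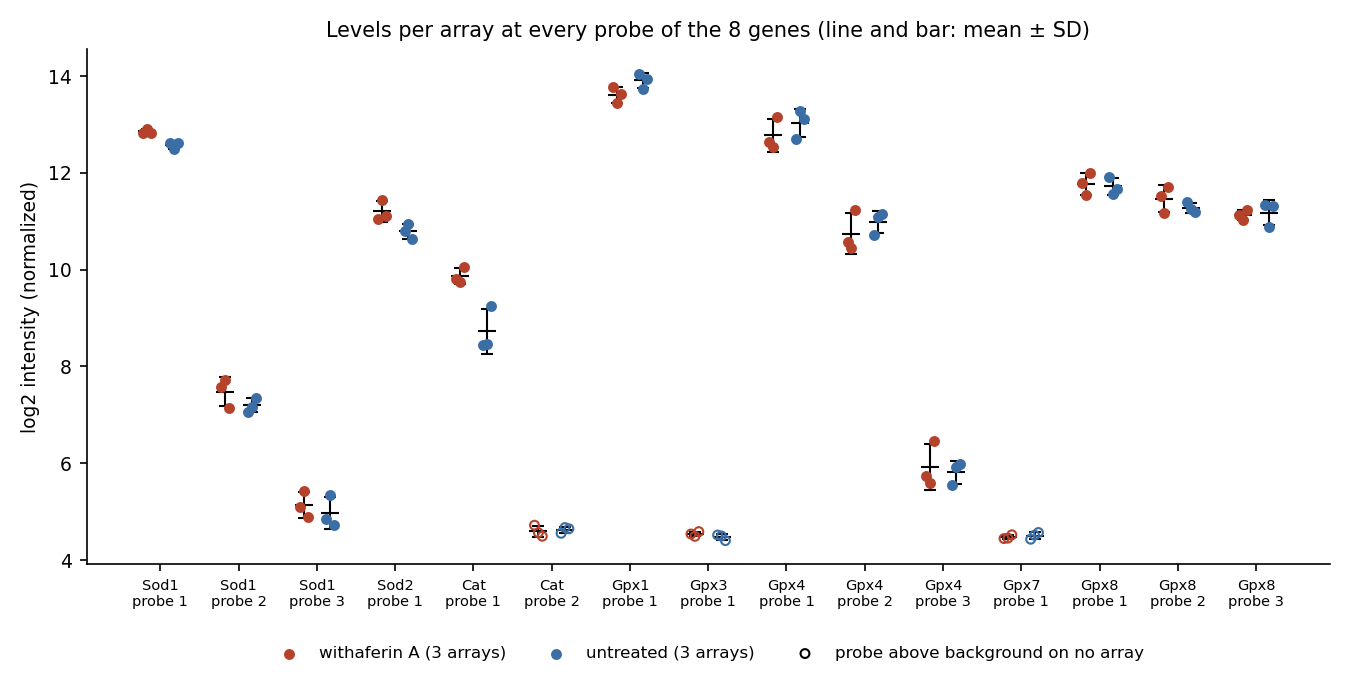
Normalized log2 intensity (y axis) on each withaferin A array (red, left) and each untreated array (blue, right) at the 15 probes of the 8 genes, with mean and SD in black and open points for probes above background on no array. Only at probe 1 of Cat, Sod1 and Sod2 do the red points lie clear of the blue ones, and Cat shows the widest separation.

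Cat encodes catalase. Its brighter probe read 9.81, 9.74 and 10.06 on withaferin A arrays 1 to 3, against 8.45, 8.46 and 9.26 on untreated arrays 1 to 3. Every treated array was above every untreated one, and untreated array 3 stood 0.80 below its same-numbered treated array, where the other same-numbered differences were 1.36 and 1.27. The group means were 9.87 ± 0.17 with withaferin A and 8.72 ± 0.46 without (SD, n = 3 each), a log2 change of 1.14 (SE 0.23, 95% interval 0.63 to 1.66, limma adjusted p = 0.0227). This change was larger in size than 97.6% of those at all tested probes. The raw intensities, before any correction, were 848, 887 and 1000 with withaferin A against 451, 457 and 665 without, a ratio of means of 1.74, so the rise was present without normalization. Cat no longer passed when withaferin A array 1 or 2 was left out (adjusted p = 0.0775 and 0.0508), when untreated array 1 or 2 was left out (adjusted p = 0.0656 and 0.0661), or with no filter on dim probes (adjusted p = 0.104), while the change itself stayed between 0.90 and 1.41 over the 15 alternatives. The other probe annotated to Cat, 4.59 ± 0.12 with withaferin A and 4.62 ± 0.06 without, was above background on no array and gives no second reading.

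The sequence before the start of Cat and of the genes with the next largest changes is shown so that the elements there can be read beside the RNA changes, among them the element that NRF2 binds. The 250 bases before each annotated start were read from a RefSeq promoter table of build GRCm38.p6, in which all 8 genes were found, with 11 windows in total. They lie at chr2:103485154-103485403 on the minus strand (Cat), chr17:13007589-13007838 on the plus strand (Sod2), chr9:108338830-108339079 on the plus strand (Gpx1) and chr16:90220512-90220761 on the plus strand (Sod1). Letters run 5′ to 3′ in the direction of the gene. Capitals mark the core of the antioxidant response element (TGACNNNGC), the GC box (GGGCGG) and the CCAAT box (CCAAT), each searched on both strands.
Cat: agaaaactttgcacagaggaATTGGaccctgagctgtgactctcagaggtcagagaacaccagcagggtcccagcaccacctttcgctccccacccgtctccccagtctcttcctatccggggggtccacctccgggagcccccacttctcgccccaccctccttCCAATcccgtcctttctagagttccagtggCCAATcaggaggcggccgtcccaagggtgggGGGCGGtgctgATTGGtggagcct
Sod2: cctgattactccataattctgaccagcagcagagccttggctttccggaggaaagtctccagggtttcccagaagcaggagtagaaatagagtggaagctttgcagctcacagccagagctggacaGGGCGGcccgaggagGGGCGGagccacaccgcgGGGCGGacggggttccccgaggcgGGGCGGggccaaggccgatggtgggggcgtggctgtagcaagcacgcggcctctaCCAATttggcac
Gpx1: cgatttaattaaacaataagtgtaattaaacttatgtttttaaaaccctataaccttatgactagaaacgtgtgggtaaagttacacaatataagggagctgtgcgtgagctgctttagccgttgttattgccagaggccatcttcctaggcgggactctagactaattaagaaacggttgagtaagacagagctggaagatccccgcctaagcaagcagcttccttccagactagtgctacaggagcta
Sod1: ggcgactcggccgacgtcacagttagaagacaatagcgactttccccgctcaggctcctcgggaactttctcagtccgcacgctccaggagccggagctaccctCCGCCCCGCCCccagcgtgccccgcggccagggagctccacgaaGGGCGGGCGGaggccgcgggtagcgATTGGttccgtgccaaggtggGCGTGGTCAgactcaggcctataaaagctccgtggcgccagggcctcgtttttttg

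The Cat window held 4 CCAAT boxes, which 0.84% of 32851 windows of this length reached, and 1 GC box, but no match to the antioxidant response element core. That core occurred in 1 of the 11 windows, in Sod1, as GCGTGGTCA on the opposite strand beginning 56 bases before the start, and in 10.2% of all windows. Sod2 and Sod1 each held 4 GC boxes (4.09% of windows held 4 or more), and those of Sod1 overlap in pairs. No match to any of these motifs was found in the Gpx1 window, which was 42.0% G and C, against 62.0% for Cat, 63.6% for Sod2 and 66.4% for Sod1. Among the NRF2 targets used to check the treatment, windows were found for 4 genes, and the core was held by Gclm and, in 1 of its 3 windows, by Txnrd1. These matches describe the letters of a short window and say nothing of binding.

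Sod2, the manganese dismutase of mitochondria, read 11.05, 11.45 and 11.11 with withaferin A, against 10.79, 10.94 and 10.64 without. The groups did not overlap, but the gap between the lowest treated and the highest untreated array was small beside the spread within either group. The means were 11.20 ± 0.21 with withaferin A and 10.79 ± 0.15 without, and the change of 0.41 (SE 0.17, 95% interval 0.03 to 0.79) did not pass (limma adjusted p = 0.173).

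Sod1, the copper-zinc dismutase of the cytosol, was read by 3 probes. At the brightest the values were 12.83, 12.91 and 12.83 with withaferin A, against 12.61, 12.49 and 12.63 without, which again did not overlap. Its change was 0.28 (SE 0.14, 95% interval -0.04 to 0.60, limma adjusted p = 0.258). The second probe gave the same change of 0.28 with overlapping groups (adjusted p = 0.385). The third changed by 0.16 and was above background on 2 withaferin A arrays and 1 untreated array. The upper end of the interval at the brightest probe corresponds to a 1.52-fold rise.

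Gpx1, the abundant cytosolic and mitochondrial selenoenzyme, read 13.77, 13.44 and 13.62 with withaferin A, against 14.05, 13.74 and 13.94 without. The groups touched, since withaferin A array 1 was above untreated array 2. The differences between same-numbered arrays were nearly equal, at -0.28, -0.30 and -0.32, although the numbers are not known to pair the arrays. The change of -0.30 (SE 0.16, 95% interval -0.67 to 0.07) did not pass (limma adjusted p = 0.291).

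Gpx4, which reduces phospholipid hydroperoxides inside membranes and restrains ferroptosis, a form of cell death driven by lipid peroxidation, was also read by 3 probes. The brightest gave 12.63, 12.53 and 13.16 with withaferin A, against 12.70, 13.28 and 13.11 without. Withaferin A array 3 stood above the other treated arrays at all 3 Gpx4 probes. The changes were -0.26 (SE 0.22, 95% interval -0.74 to 0.23, limma adjusted p = 0.503), -0.24 (adjusted p = 0.551) and, at the dimmest probe, 0.11 (adjusted p = 0.824). The groups overlapped at each.

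Gpx8, a membrane-bound peroxidase of the endoplasmic reticulum with cysteine in place of selenocysteine, read 11.79, 11.55 and 11.99 with withaferin A, against 11.92, 11.56 and 11.68 without, at its brightest probe. Its 3 probes changed by 0.06, 0.19 and -0.04, with adjusted p-values from limma of 0.882, 0.557 and 0.913 and groups that overlapped at each. The 95% intervals ran from -0.43 at the lowest to 0.58 at the highest. Gpx7, the related enzyme of the same compartment, read 4.47 ± 0.04 with withaferin A and 4.50 ± 0.07 without and was above background on none of the 6 arrays. Gpx3, the secreted plasma form, read 4.54 ± 0.05 and 4.47 ± 0.06 in the same order and was likewise above background on none. No fold is given for either.

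**Figure D2:**
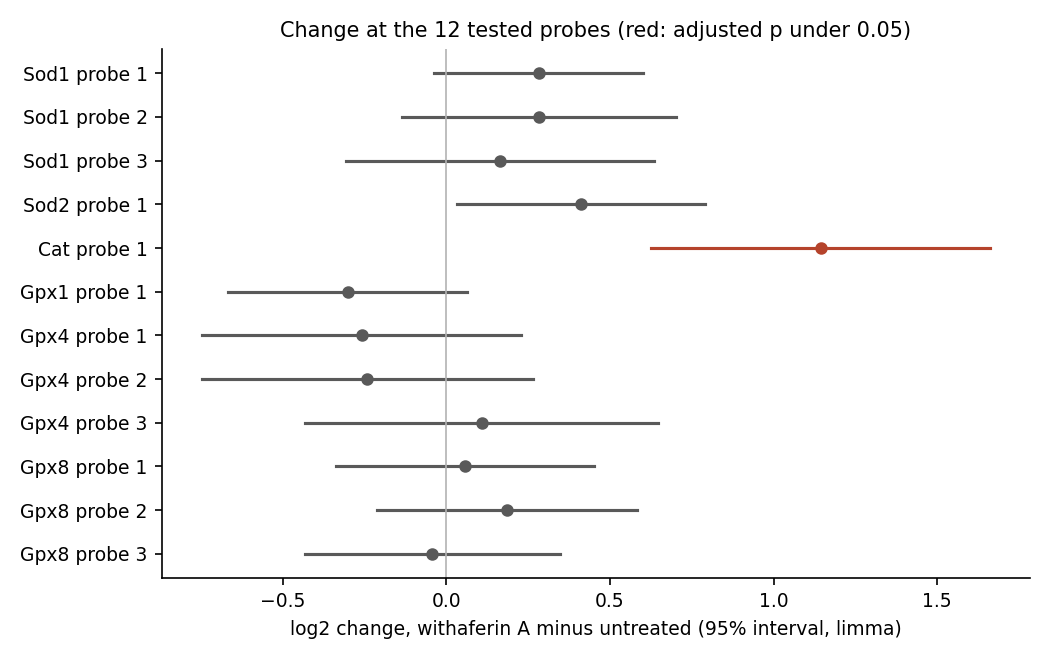
Log2 change (x axis, withaferin A minus untreated) with its 95% interval from limma at each of the 12 tested probes. The interval of Cat, 0.63 to 1.66, lies farthest from 0, that of Sod2 ends just above 0, and the intervals of the other 10 probes include 0.

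The authors' deposited value table gave a different count. It holds log2 intensities centred within same-numbered arrays, so that only a paired test can be made on it. In that test Cat (log2 change 1.06, limma adjusted p = 0.00175) was joined by Sod2 (0.40, adjusted p = 0.0142), Sod1 at its brightest probe (0.27, adjusted p = 0.0448) and Gpx1 (-0.30, adjusted p = 0.0260). These 4 of 12 probes compare with 23.9% of all tested probes called in the table. The sizes were close to those given above and the errors were smaller, with an SE of 0.07 against 0.16 for Gpx1. A replicate-number block on the normalized intensities called only Cat (adjusted p = 0.00603).

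**Figure D3:**
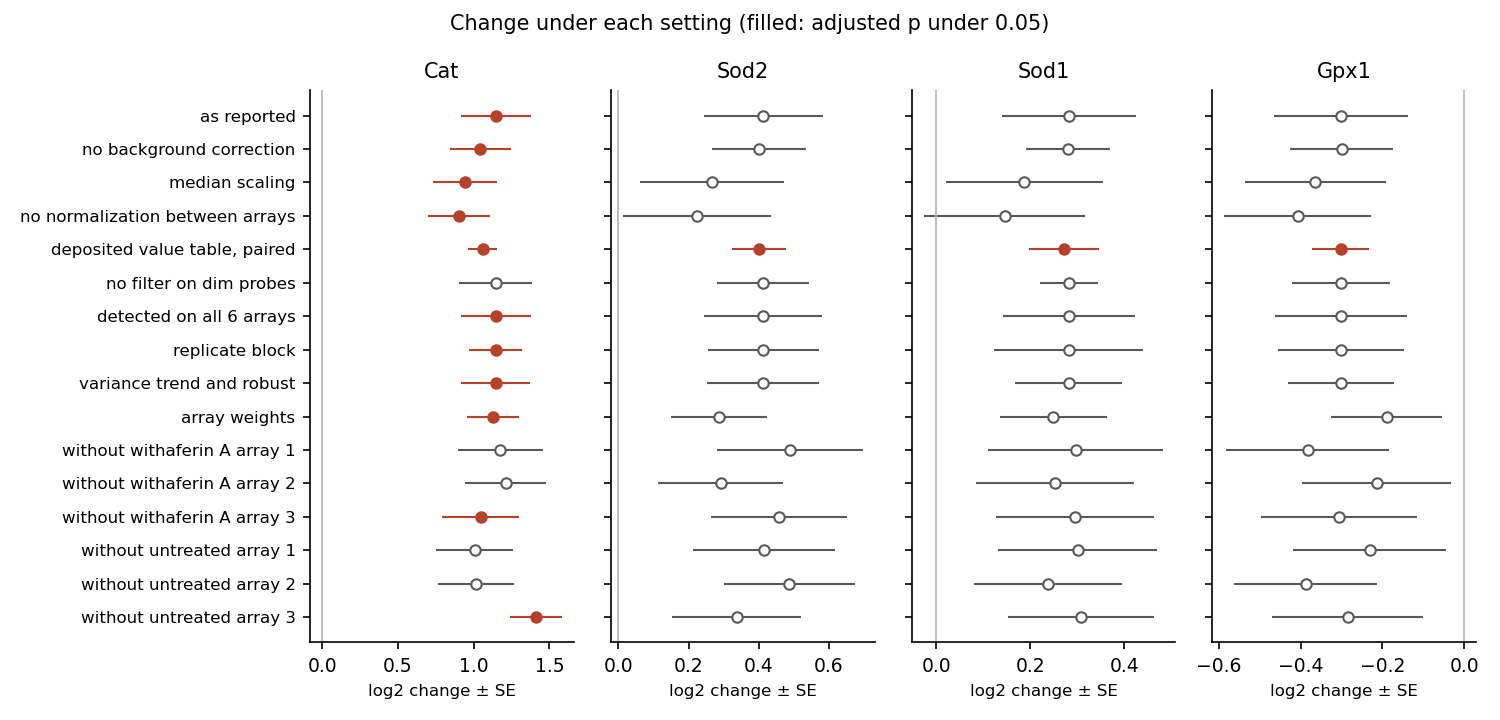
Log2 change with its SE (x axes, which differ in range) for Cat, Sod2, Sod1 and Gpx1 at their brightest probes under the reported setting and 15 alternatives (y axis), filled where the adjusted p is under 0.05. All 4 keep their sign throughout, Cat passes in 10 of the 15 alternatives, and the other genes pass in the authors' deposited value table alone.

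The 6 values of Cat were compared with those of every other tested gene to find the closest patterns. The highest Pearson correlations over the 6 arrays were with Spen, a transcriptional corepressor gene (r = 0.989, log2 change 0.68), Gpr137b, a lysosomal membrane protein gene (r = 0.988, log2 change 1.96), and Ubr4, an E3 ubiquitin ligase gene (r = 0.986, log2 change 0.41). Ubr4 did not pass in limma (adjusted p = 0.126) and passed in 2 of 15 alternatives. Spen (adjusted p = 0.0427) passed in 5 of them and Gpr137b (adjusted p = 0.00377) in 14. Of 9750 genes, 283 had a correlation above 0.9 with Cat. All these points share the same 6 arrays and the difference between the groups, so the ranking is a description.

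Other genes of the same chemistry were read from lists of 5 to 26 genes. Of the 2 tested genes among 5 other family members, 0 passed in limma and 0 had an unadjusted p under 0.05, against 6.83% and 26.0% of all tested genes. These were Sod3, the extracellular dismutase (0.18), and Ccs, the copper chaperone that loads SOD1 (-0.31), named after their values were seen. Sod3 was dim, above background on 1 withaferin A array and 2 untreated arrays. Gpx2, Gpx5 and Gpx6 did not pass the filter on dim probes.

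The thiol-based partners of these enzymes, which work through peroxiredoxins, thioredoxin and glutathione, included the larger changes. Of 19 tested genes 8 rose, 1 fell and 10 did not pass, with a median change of 0.55, where 2.81% of all tested genes rose and 4.02% fell. Srxn1, which reactivates oxidised peroxiredoxins, averaged 12.74 ± 0.26 with withaferin A and 8.84 ± 0.17 without, a 14.9-fold rise (limma adjusted p = 7.16e-06). Gclm, the modifier subunit of the first enzyme of glutathione synthesis, averaged 12.28 ± 0.12 with withaferin A and 9.24 ± 0.24 without, an 8.23-fold rise (adjusted p = 1.95e-05). Both passed in all 15 alternatives. Prdx1, a peroxiredoxin that, like catalase, breaks down hydrogen peroxide, was 1.69-fold higher (adjusted p = 0.0274) at the brighter of its 2 tested probes and was named after its value was seen. That call was lost without withaferin A array 1 or 2 or untreated array 2 or 3 (adjusted p up to 0.120). The other tested peroxiredoxin genes, Prdx2 (-0.07), Prdx3 (0.16) and Prdx4 (-0.11), did not pass. The list shares Txnrd1, Txnrd2, Txnrd3, Slc7a11 and Prdx4 with lists below and Srxn1, Gclm and Txnrd1 with the treatment check, and earlier results had shown its direction.

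Selenoproteins and the machinery that makes them, on which Gpx1 and Gpx4 depend, mostly did not pass the test. Of 22 tested genes 1 rose, 2 fell and 19 did not pass (median -0.13), where 2.81% of all tested genes rose and 4.02% fell. The count was 1 higher and 7 lower with median scaling, without normalization and in the authors' deposited value table. In that order, 1.76%, 1.64% and 12.5% of all tested genes rose and 12.9%, 15.7% and 15.1% fell. With no filter on dim probes it was 1 higher and 0 lower of 26 genes, where 0.903% of all genes rose and 0.866% fell. Txnrd1, the cytosolic thioredoxin reductase, averaged 7.60 ± 0.37 with withaferin A and 5.81 ± 0.17 without, 3.46-fold higher (limma adjusted p = 0.00156). Txnrd2, its mitochondrial counterpart, averaged 7.09 ± 0.25 with withaferin A and 8.13 ± 0.31 without, 2.06-fold lower (adjusted p = 0.0200). At the other Txnrd2 probe the change was 0.10 (adjusted p = 0.834), and the call was lost without untreated arrays 1 or 2, withaferin A arrays 1 or 2, or the filter (adjusted p up to 0.0843).

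Peroxisomal genes, which share the compartment of catalase, mostly did not pass either. Of 17 tested import factors and oxidases 0 rose in limma, 2 fell and 15 did not pass (median -0.03), where 2.81% of all tested genes rose and 4.02% fell, and 5 had an unadjusted p under 0.05 in either direction, which 26.0% of all tested genes had. With median scaling 0 rose and 4 fell, where 1.76% of all tested genes rose and 12.9% fell. The counts were 2 higher and 4 lower in the authors' deposited value table, where 12.5% of all tested genes rose and 15.1% fell. Uox, the peroxisomal urate oxidase, which produces hydrogen peroxide, averaged 6.98 ± 0.32 with withaferin A and 8.48 ± 0.32 without, 2.82-fold lower (limma adjusted p = 0.00518), and passed in all 15 alternatives. This rests on 1 probe, since another Uox probe (4.27 with withaferin A, 4.34 without) did not pass the filter on dim probes. Pex7, the import receptor for a minority of peroxisomal proteins, averaged 6.95 ± 0.22 with withaferin A and 7.87 ± 0.18 without, 1.90-fold lower (adjusted p = 0.0171). That call was lost without untreated array 3, withaferin A arrays 1 or 2, or the filter (adjusted p up to 0.0698). At the other Pex7 probe the change was -0.77 and did not pass (adjusted p = 0.0511). Pex5, the receptor that carries catalase into peroxisomes, had a change of 0.33 that did not pass (adjusted p = 0.286), was named after its value was seen, and passed in the authors' deposited value table alone (0.26, adjusted p = 0.0475).

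Genes of oxidative folding in the endoplasmic reticulum, where Gpx7 and Gpx8 act, had 1 of 13 higher, 0 lower and 12 not passing in limma (median 0.08), where 6.83% of all tested genes passed in either direction. Of the 13, 2 had an unadjusted p under 0.05, against 26.0% of all tested genes. The count was 2 higher and 2 lower in the authors' deposited value table, where 12.5% of all tested genes rose and 15.1% fell. It was the same with array weights, where 10.2% rose and 11.8% fell. With median scaling it was 0 higher and 1 lower, where 1.76% rose and 12.9% fell. Vkorc1l1, a vitamin K epoxide reductase paralog, averaged 10.58 ± 0.16 with withaferin A and 9.83 ± 0.16 without, 1.67-fold higher (limma adjusted p = 0.0311), and passed in 8 of 15 alternatives. These values are from the brightest of its 4 tested probes. The others changed by 0.80 (adjusted p = 0.0299), 0.63 (adjusted p = 0.0410) and 0.49, of which the last did not pass (adjusted p = 0.296). Of 16 sources of superoxide and hydrogen peroxide on the array 4 were tested, of which 1 rose, 1 fell and 2 did not pass (median -0.16), where 2.81% of all tested genes rose and 4.02% fell. Without background correction none of the 4 passed, where 2.78% of all tested genes rose and 3.23% fell. Xdh, xanthine dehydrogenase, averaged 8.23 ± 0.64 with withaferin A and 9.49 ± 0.40 without, 2.40-fold lower (adjusted p = 0.0481), and passed in 7 of 15 alternatives. Aox1, an aldehyde oxidase, averaged 5.70 ± 0.29 with withaferin A and 4.93 ± 0.09 without (adjusted p = 0.0404), but was above background on 3 withaferin A arrays and 1 untreated array, so it entered the test through the treated group and no fold is given. Its log2 change of 0.76 became 0.34 without background correction (adjusted p = 0.103), and it passed in 6 of 14 alternatives.

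Genes of lipid peroxidation and ferroptosis, the setting in which Gpx4 acts, rose in 2 and fell in 1 of 9 cases, with 6 not passing (median 0.18), where 2.81% of all tested genes rose and 4.02% fell. Slc7a11, the cystine transporter subunit that feeds glutathione synthesis, was 8.10-fold higher (limma adjusted p = 0.00154). Ftl1, the ferritin light chain, averaged 14.62 ± 0.08 with withaferin A and 13.53 ± 0.12 without, 2.14-fold higher (adjusted p = 0.00353). Both passed in all 15 alternatives.

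**Figure D4:**
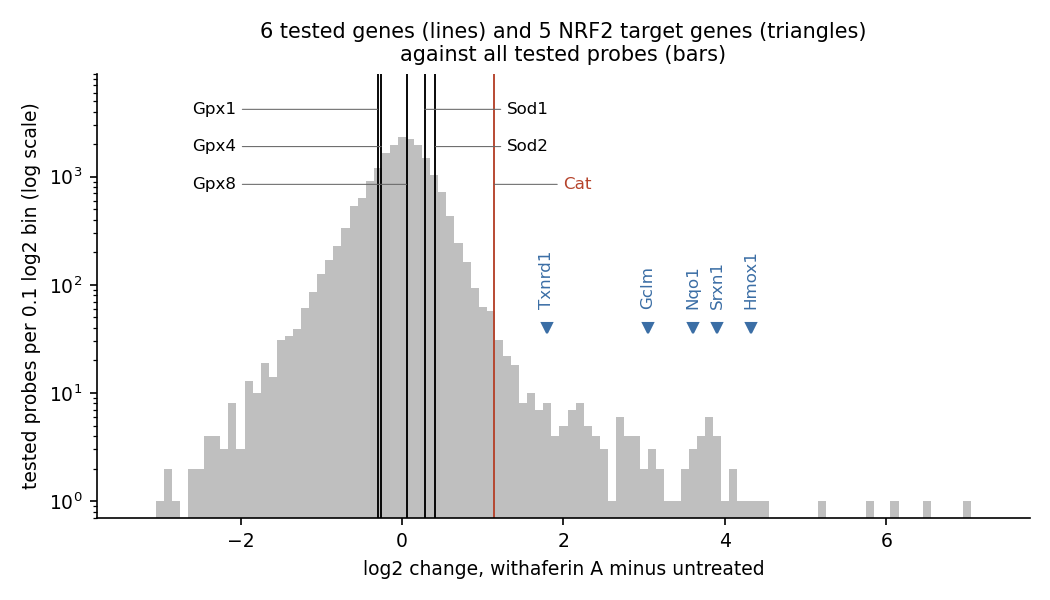
Log2 change (x axis) of all 19077 tested probes as a histogram (y axis, probes per bin, log scale), with lines at the 6 tested members (Cat in red) and triangles, at an arbitrary height, at the 5 NRF2 targets used to check the treatment. Cat at 1.14 lies on the right shoulder, the other members lie within the central peak, and the NRF2 targets lie between 1.79 and 4.33.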

How the data were processed

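Per the labels, total RNA was biotin-labelled and hybridised to an Illumina mouse array, 3 arrays per group. The authors deposited 1 intensity per probe and array. Its array medians differ and its lowest values lie well above 0, so no normalization or background subtraction is visible. The deposited column named as a detection p-value was read here as 1 minus p, because it rises with intensity on every array (Spearman 0.988 to 0.994 over all probes) and is at its highest value, 1, for the brightest probes. No source used here states this, and it decides which probes count as above background. The authors also deposited a value table of log2 intensities centred on the mean of same-numbered arrays, whose 2 columns are opposite to within 1e-06. Its column medians were 0.000566, 0.00265 and 0.00108 for withaferin A arrays 1 to 3 and -0.000566, -0.00265 and -0.00108 for untreated arrays 1 to 3. Across tested probes its differences correlated with those used here at 0.963, 0.966 and 0.961, which fixes its direction. How that table was normalized between arrays, and the scanner software, are not given in the sources used here.

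Neqc of limma 3.58.1 (R 4.3.3) corrected the background by normexp, inferring the negative controls from detection p, and applied an offset of 16, quantile normalization and log2. Of 45281 probes, 34885 had 1 symbol, 18 had several and 10378 were not listed. Gene IDs of 34807 were found in a GRCm38.p6 gene table, and 0 symbols changed. The test was limma, two-sided, by lmFit and eBayes. Errors are the SD over 3 arrays or the limma standard error (SE). On simulated data for this comparison (19077 probes), limma called 49 of 100 probes with a true 2-fold change, 93 of 100 with a true 4-fold change, and 2 of 18877 without one. The simulation used independent normal errors and changed a smaller share of probes than the 5.90% called here, so its rates need not hold for these data. The number of arrays limits the precision.

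The members and lists were chosen with earlier results of these data known. All members were named with every probe, then from each list the 2 called genes with the largest change, and for Cat the 3 genes of most similar pattern. A list gene was read at its tested probe with the highest mean. Alternatives covered background correction, normalization, the value table, the dim-probe filter, a replicate block, array weights, the variance model, the probes required per gene and leaving out each array.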

Additional observations from a re-analysis of the deposited data

How the results depend on the processing

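Over the 12 tested probes of the members, 179 fits under 15 alternatives were compared with the reported values: 159 kept their sign and side of the threshold, 12 changed sign, 3 gained a call and 5 lost one. Sign changes touched only Gpx4 and Gpx8 probes with reported changes of at most 0.11 in size. The dimmest Gpx4 probe had -0.12 with median scaling, -0.17 without normalization between arrays, -0.014 with array weights and -0.16 to 0.28 with 1 array left out in turn. Gpx8 probe 1 had -0.052 with median scaling, -0.095 without normalization and -0.051 to 0.17 with 1 array left out, and Gpx8 probe 3 had -0.19 to 0.041. Sod3, not a member, had -0.069 without withaferin A array 1 and up to 0.33 with another array left out. The cause was not tested. The gained calls were Sod1, Sod2 and Gpx1 in the deposited value table, where 4 member genes and 4 member probes passed. Cat was lost with no filter, where 45281 probes were tested and 0 members passed in limma, and 0 to 1 member genes and probes passed with 1 array left out.

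Of all tested probes 1125 passed (487 higher, 638 lower). The count was 2486 with median scaling (296 higher, 2190 lower), 2959 without normalization (276 higher, 2683 lower), 4568 in the value table (2195 higher, 2373 lower), 579 with no filter (308 higher, 271 lower), 1753 with the replicate block (735 higher, 1018 lower), 3972 with array weights, which gave withaferin A array 1 a weight of 10.2 against 0.473 to 0.967 for the others and stopped before convergence, and 382 to 1550 with 1 array left out. It was 382 without withaferin A array 1, 505 without withaferin A array 2, 720 without untreated array 2 and 494 without untreated array 3. Without normalization the median change of all tested probes was -0.22, and with median scaling -0.17, so Cat at 0.90 and 0.94 stood above that shift.

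Same-numbered arrays deviated from their group means with correlations of 0.27, -0.04 and 0.32, and differently numbered arrays with -0.39 to 0.27. Not every array correlated best with its own number. With 3 arrays per group, these correlations cannot decide whether same-numbered arrays are paired. The reported test did not pair the arrays, although the authors' value table is centred on same-numbered arrays. The replicate block changed no member's call. Signal over background limits what can be said of the 3 member probes above background on no array, which were not tested.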
